A study of Mus musculus with 56 samples.

Results

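The genes of endoplasmic reticulum (ER) protein folding were followed over the day in livers of mice fed by day or by night. The set holds 40 genes of the unfolded protein response, ER chaperones, ER-associated degradation and protein translocation. They were picked by name, with earlier results of these data known, from a gene table of 25415 rows, of which 25244 could be tested. All 40 were in that number, and 39 had a mean of at least 1 scaled count, the unit used throughout. Female C57BL/6J mice of 9 weeks, kept under 12 h of light and 12 h of dark, had eaten chow for 7 days either by day (daytime-restricted feeding, DRF) or by night (nighttime-restricted feeding, NRF). Mice are active and feed at night, so NRF keeps the natural phase, and the labels name no transgene or drug in either regimen. Tissue was collected at 7 zeitgeber times (ZT, counted in h from the start of the light phase), every 4 h from ZT0 to ZT24, with 4 libraries per regimen and time, which gave 14 groups and 56 libraries. A scaled count is a count recovered from the deposited value and divided by a library factor. It compares libraries for one gene and does not compare genes.

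The lumen of the ER is where secreted and membrane proteins fold, and the liver exports plasma proteins in bulk. Membrane sensors, encoded by Ern1, Atf6 and Eif2ak3, respond when unfolded protein gathers there. Ern1 splices the mRNA of the transcription factor Xbp1, a fragment of Atf6 enters the nucleus, and Eif2ak3 slows translation by phosphorylating an initiation factor. Active Atf6 and spliced Xbp1 bind ER stress response elements (ERSE) in promoters of chaperone genes.

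The promoters were read first, because they show which members carry that element. RefSeq windows of GRCm38.p6 reaching from 250 bases before to 50 bases after a gene's start were at hand for 33 of the 40 members. Atf6, Hyou1, Hspa13, Manf, Derl1, Sec61a1 and Ssr2 are named only. The ERSE was searched on both strands as CCAAT, any 9 bases, then CCACG. It stood in the windows of 10 of the 33 members, Calr, Canx, Creld2, Derl3, Dnajc3, Ero1lb, Hsp90b1, Hspa5, Pdia6 and Syvn1, against 0.137% of 27025 genes with a window. The 10 members made up 27.0% of the 37 genes that carried it. The windows are given 5′ to 3′ on the strand of the gene with the whole element in capitals, where an element that opens with CGTGG reads on the other strand.
Hspa5 (chr2:34772015-34772053, plus strand): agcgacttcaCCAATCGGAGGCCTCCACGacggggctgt
Hsp90b1 (chr10:86705523-86705666, minus strand): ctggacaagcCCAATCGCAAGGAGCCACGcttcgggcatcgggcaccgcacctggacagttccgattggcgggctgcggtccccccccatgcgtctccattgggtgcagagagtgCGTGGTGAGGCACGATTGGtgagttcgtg
Calr (chr8:84847065-84847103, minus strand): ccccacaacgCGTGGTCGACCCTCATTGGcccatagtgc
Creld2 (chr15:88819510-88819548, plus strand): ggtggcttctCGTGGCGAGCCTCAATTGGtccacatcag
Pdia6 (chr12:17266481-17266519, plus strand): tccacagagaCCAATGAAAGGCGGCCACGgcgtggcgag
Dnajc3 (chr14:118937817-118937855, plus strand): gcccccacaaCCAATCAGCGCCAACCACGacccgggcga
Canx (chr11:50325790-50325828, minus strand): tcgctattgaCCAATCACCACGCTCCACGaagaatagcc
Syvn1 (chr19:6046522-6046560, plus strand): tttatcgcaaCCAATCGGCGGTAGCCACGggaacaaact
Ero1lb (chr13:12565672-12565710, plus strand): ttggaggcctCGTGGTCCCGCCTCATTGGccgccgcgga
Derl3 (chr10:75893232-75893270, plus strand): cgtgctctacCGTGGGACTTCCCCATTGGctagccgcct

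Hsp90b1 held 2 copies, and the other 9 held 1 each. A shorter form, ERSE-II (ATTGG, any 1 base, CCACG), was present in 0.0444% of genes and in 2 members, Dnajb11 and Herpud1. That of Herpud1, a scaffold of ER-associated degradation, lay before the start and is shown next, again in capitals.
Herpud1 (chr8:94386367-94386397, plus strand): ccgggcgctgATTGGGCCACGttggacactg

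None of the 33 held a UPRE (TGACGTGG, 0.714% of genes) or a CRE (TGACGTCA, 2.03% of genes). An E-box (CACGTG), the letters bound by clock factors, stood in 5 members, Calr, Derl3, Dnajb9, Sec62 and Ssr1, against 8.09% of genes. The motifs are not separate in their letters: the CCACG of an ERSE can overlap an E-box and is contained in the UPRE read on the other strand, and UPRE and CRE share their first 6 letters. These matches describe windows and were not tested as binding sites. Of the 10 members with an ERSE, 9 had a 24-h component that differed between regimens (39.6% of all genes). Of the same 10, 8 were rhythmic in both regimens and phase-inverted, as defined further on, against 3124 of 25244 genes. Over all 40 members, with or without an ERSE, that difference was called in 31. Of the 27 members rhythmic in both regimens, 23 were phase-inverted. Whether members with an ERSE differ from those without was not tested, so these counts do not tie either trait to the element. Among the other genes with an ERSE 14 were tested, of which 7 differed between regimens, and 2 of the 3 rhythmic in both were phase-inverted, against 51.0% of all genes rhythmic in both.

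To separate a daily rhythm from a pattern with 2 cycles a day, a 24-h and a 12-h cosine were fitted to each gene and regimen with limma on log2(scaled count + 1). Adjusted p-values are Benjamini-Hochberg values over all 25244 genes, and an adjusted p under 0.05 counts as a call. The labels number the 4 libraries of a group without saying that each is a separate animal, so the p-values measure only the spread between these libraries, which may be technical. A 24-h component was called in 29 of the 40 members under DRF (background of all genes 35.4%) and in 31 under NRF (45.3%). The members are mostly well expressed, and among the 13709 genes with a mean of at least 1 scaled count the shares were 51.7% and 60.3%. Both regimens gave a 24-h call for 27 members (24.2% of all genes). At the same clock time the 24-h components of DRF and NRF differed in 31 members (39.6%). When the NRF curve was turned by 12 h, so that the regimens were matched by the time since feeding began, 14 members still differed (36.7%), 12 of them among the 31. Among genes with a mean of at least 1 the shares were 55.3% by clock time and 51.1% by feeding time. For 19 members a difference was therefore called by clock time and not by feeding time, though a missed threshold does not show that the turned curves were equal.

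Among the 27 members with a 24-h component in both regimens, 23 had peaks 8 to 12 h apart, the class called phase-inverted (51.0% of the 6121 genes rhythmic in both). One, Atf6, had peaks within 4 h and counted as phase-locked (24.8%). Ern1, Sec61b and Sec61g lay between. The shifts of the 23 ranged from 8.36 to 11.6 h with a median of 10.4 h. In 21 of them the peak fell between 5.50 and 11.7 h under DRF, in the light, and between 18.9 and 22.6 h under NRF, in the dark. Herpud1 and Sec62 were the other 2, and they ran the opposite way, with peaks at 23.3 h ± 1.204 (SE) and 0.79 h ± 1.21 by DRF and at 11.7 h ± 0.451 and 11.5 h ± 1.09 by NRF.

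**Figure D1:**
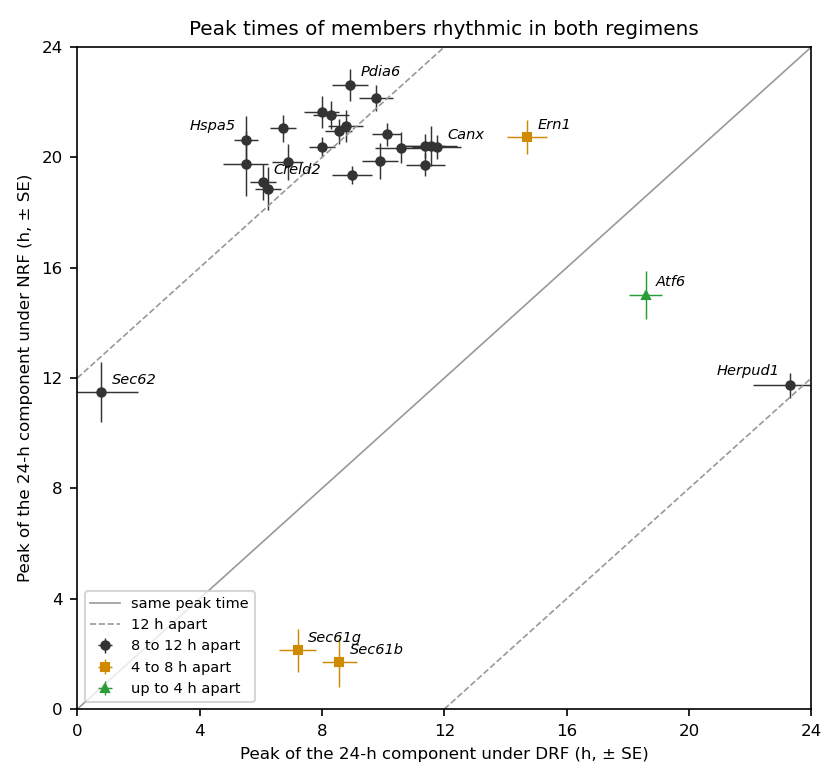
Peak time of the 24-h component under NRF (y axis, h) against DRF (x axis, h) for the 27 members with a call in both regimens; bars are SE and n = 28 libraries per regimen. A group of 21 members sits near the dashed line of a 12-h shift at 5.50 to 11.7 h under DRF, Sec62 and Herpud1 lie apart at the left and right edges, and Atf6 is nearest to the line of equal peaks.

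Single times were compared in a fit of the 14 group means. At ZT0, when lights came on, 24 members were lower under DRF (8.06%) and 1, Herpud1, was higher (8.0%). By ZT4 the order had turned, with 25 members higher (10.8%) and 0 lower (9.6%), and all 40 fitted differences were above 0. At ZT8 20 members were higher (5.71%) and 1, Xbp1, was lower (7.26%), and at ZT12 19 were higher (7.06%) and 2, Herpud1 and Sec62, lower (8.12%). The order had turned again by ZT16, with 15 members lower (6.44%) and 1, P4hb, higher (8.75%). At ZT20 17 were lower (6.1%) and 2, Atf6 and Herpud1, higher (7.7%), and at ZT24 24 were lower (6.99%) and 1, Herpud1, higher (7.12%). The median log2 difference of the 40 members, DRF minus NRF, started at -0.42 (ZT0), was 0.42, 0.39 and 0.30 from ZT4 to ZT12, and was -0.22, -0.29 and -0.44 from ZT16 to ZT24, where that of all genes stayed within 0.0033 of 0. Any difference at all over the 7 times was called in 34 members (42.6% of all genes, 60.7% of those with a mean of at least 1).

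**Figure D2:**
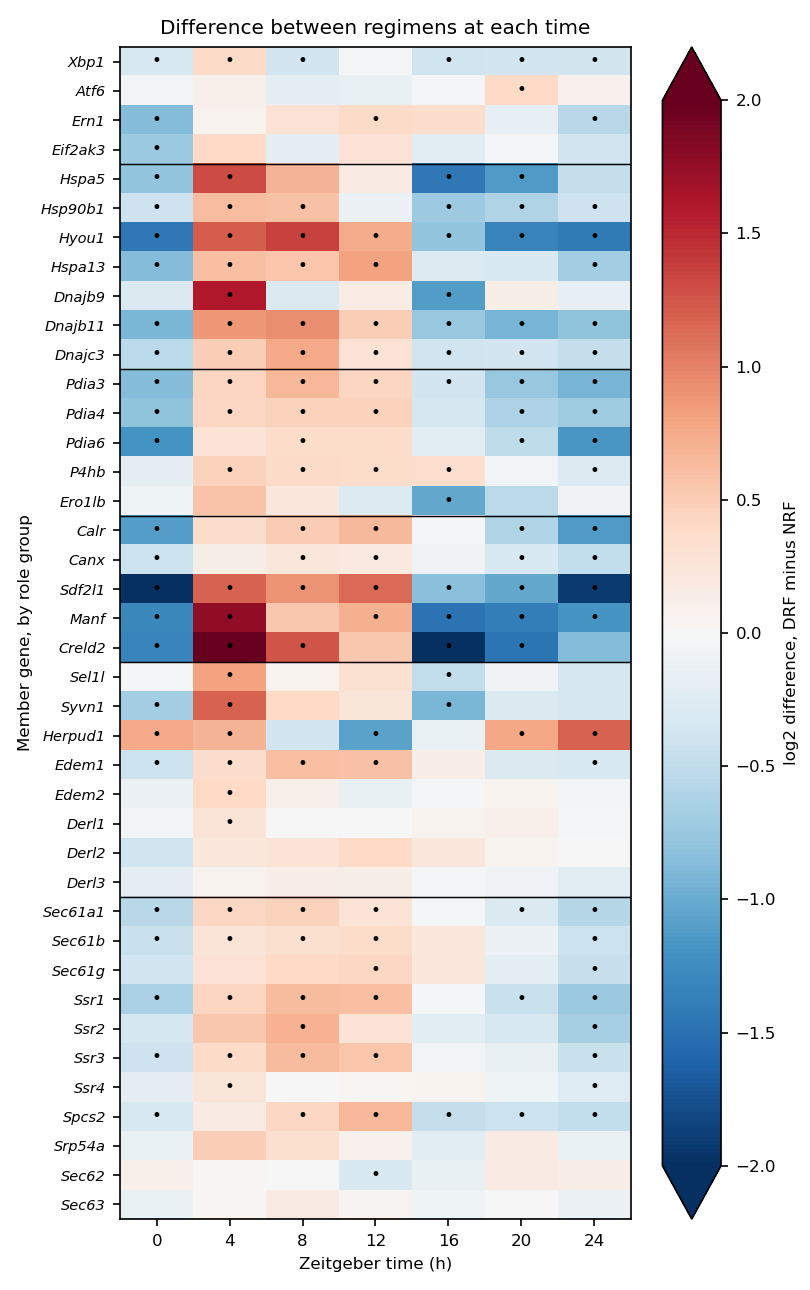
Difference between regimens (colour, log2 DRF minus NRF of the group means, n = 4 libraries each, clipped at 2) for each of the 40 members (rows, by role) at each ZT (columns, h); dots mark adjusted p under 0.05. Most rows turn from blue at ZT0 to red at ZT4 to ZT12 and back to blue from ZT16, while Herpud1 is red at ZT0, ZT4, ZT20 and ZT24 and blue at ZT12.

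The highest of the 7 group means fell at ZT4 in 24 members under DRF (17.4% of all genes) and at ZT16 in 11 under NRF (16.4%). A further 11 had their NRF maximum at ZT0 and 8 at ZT24, which are the same time of day, with no share over all genes counted for either. One library stood apart from its group, NRF ZT16 replicate 3, whose mean squared deviation over genes was 0.14 on the log2 scale, with 0.103 for the next and a median of 0.0515. It was the highest of 4 at NRF ZT16 in 23 members, with no share over all genes counted. Without this library the NRF maximum fell at ZT16 in 11 members as well (16.5% of all genes), but 9 of them were shared. Hspa5 and Syvn1 left, and Xbp1 and Edem1 entered. Then 13 members in place of 15 were lower under DRF at that time, Pdia3 (adjusted p = 0.34) and Syvn1 (adjusted p = 0.0671) dropping out in limma.

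A 12-h component was called in 20 members under DRF (4.74% of all genes, 7.83% of those with a mean of at least 1) and in 0 under NRF (2.0%), where limma gave 10 members an unadjusted p under 0.05 and a smallest adjusted p of 0.0727. The difference in the 12-h component between regimens was called in 0 members (0.107%), with 15 at an unadjusted p under 0.05 and a smallest adjusted p of 0.0922 (P4hb), so the 12-h component is not shown to differ between DRF and NRF. The 20 members peaked between 2.28 and 6.08 h, and 12 h later, with amplitudes from 0.11 to 0.83 on the log2 scale under DRF. The same 20 had NRF amplitudes between 0.01 and 0.49, and since they were picked by their DRF call, a lower NRF value in them is no finding. Over all 40 members, the 12-h amplitude was lower under NRF in 34, a count for which no share over all genes was made. The median amplitude of the members was 0.18 under DRF and 0.078 under NRF. Among genes with a mean of at least 1 the medians were 0.089 and 0.080. In 18 of the 20 the 24-h amplitude was larger than the 12-h one, Xbp1 and Dnajb9 being the exceptions. The number of 12-h calls moved with the libraries: it was 2 without replicate 1 of every group, 4 without replicate 2, 15 without replicate 3, 6 without replicate 4, and 5 on the values as deposited, while all genes went from 1196 calls to 308, 474, 800, 457 and 479. Hyou1 and Manf were called each time a replicate was left out. With samples 4 h apart, each 12-h cycle rests on 3 times.

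**Figure D3:**
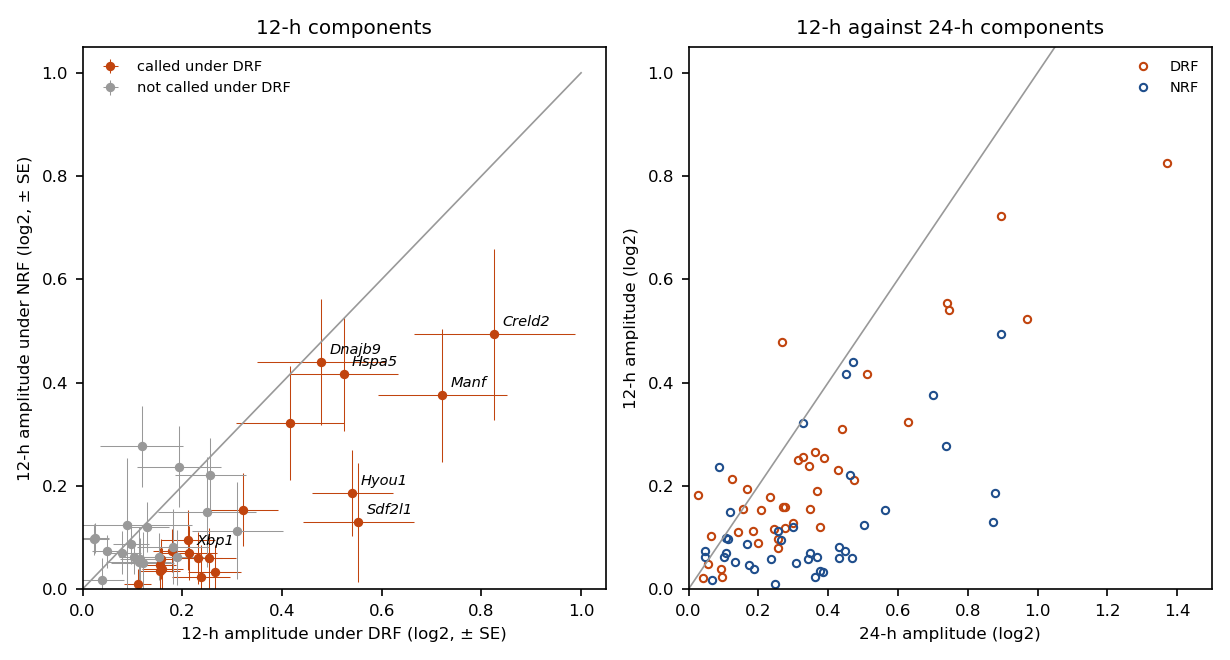
Left, amplitude of the 12-h component under NRF (y axis, log2) against DRF (x axis, log2) for the 40 members, with SE bars. The 20 called under DRF are in red and were chosen by the x axis. The difference in the 12-h component between regimens was called in 0 members. Right, 12-h against 24-h amplitude (log2) for each member and regimen; in 18 of the 20 called members the 24-h amplitude is the larger.

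A dip between high times was counted directly from the group means, a count made after the values had been seen. Under DRF the mean at ZT8 lay below those at both ZT4 and ZT12 in 19 members (26.2% of all genes). Under NRF the mean at ZT20 lay below those at both ZT16 and ZT24 in 13 members (28.7%), a share near the background.

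Among the sensors, Xbp1 (ENSMUSG00000020484, chromosome 11, 5520659 to 5525893) had no 24-h call in either regimen. Under DRF, Xbp1 read 37.1, 35.5, 32.4 and 43.1 (ZT0), 53.4, 56.1, 51.2 and 54.8 (ZT4), 34.9, 32.1, 32.4 and 28.2 (ZT8), 39.1, 52.8, 46.99 and 52.03 (ZT12), 33.1, 36.6, 37.4 and 35.3 (ZT16), 37.96, 33.8, 35.9 and 36.2 (ZT20) and 36.3, 31.1, 38.6 and 38.3 (ZT24). Under NRF the libraries read 44.04, 48.7, 48.7 and 44.00 (ZT0), 37.9, 38.4, 43.99 and 45.1 (ZT4), 43.8, 39.7, 44.1 and 39.3 (ZT8), 38.4, 43.8, 60.7 and 55.4 (ZT12), 46.3, 51.8, 39.2 and 52.9 (ZT16), 43.2, 50.2, 46.3 and 48.9 (ZT20) and 40.8, 48.8, 54.7 and 44.3 (ZT24). The DRF libraries were high at ZT4 and ZT12 and low between, and the 2 regimens overlapped only at ZT12. At ZT4 Xbp1 was higher under DRF by 0.38 ± 0.10 (log2, SE, adjusted p = 0.00651, limma) and at ZT8 lower, by -0.38 ± 0.10 (adjusted p = 0.00954), and it was also called lower at ZT0, ZT16, ZT20 and ZT24. Its mean over the day was lower under DRF by -0.21 (adjusted p = 0.00874, limma), and its 12-h component under DRF, 0.21 ± 0.06, was called at an adjusted p of 0.0494. That call was lost in each fit without 1 replicate number. Its 24-h difference at the same clock time had an adjusted p of 0.0687, and of 0.038 without NRF ZT16 replicate 3.

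Atf6 (ENSMUSG00000026663, chromosome 1, 170704674 to 170867771) encodes the sensor that is cut in the Golgi to release a transcription factor. Under DRF, Atf6 read 274, 287, 257 and 282 (ZT0), 291, 303, 269.6 and 303 (ZT4), 246, 252, 263 and 248 (ZT8), 250.0, 280.1, 312 and 323 (ZT12), 389, 365, 326 and 367 (ZT16), 358, 349, 388 and 404 (ZT20) and 336, 262, 362 and 290.3 (ZT24). Under NRF its values were 302, 270.0, 261 and 313 (ZT0), 285, 252, 318 and 236 (ZT4), 307, 311, 237 and 296 (ZT8), 334, 269, 342 and 353 (ZT12), 352, 374, 392 and 346 (ZT16), 283, 275, 292 and 283 (ZT20) and 285, 290.3, 319 and 278 (ZT24). Both regimens were high at ZT16, and the DRF libraries alone stayed high at ZT20, where all 4 lay above all 4 of NRF. The DRF peak, at 18.6 h ± 0.54, followed the NRF peak, at 15.02 h ± 0.862, by 3.56 h ± 1.02. This rhythm differed by clock time (adjusted p = 0.00523) and by feeding time (adjusted p = 3.1e-06, limma). The clock-time call was lost without replicate 1 (adjusted p = 0.143).

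Ern1 (ENSMUSG00000020715, chromosome 11, 106394650 to 106487852), the kinase and RNase IRE1, had a shift between the phase-locked and the phase-inverted range. Under DRF, Ern1 read 79.4, 115, 95.5 and 109.8 (ZT0), 150.1, 160.3, 159 and 188 (ZT4), 143, 137, 182 and 160.1 (ZT8), 154, 184, 182 and 229 (ZT12), 229, 235, 233 and 229 (ZT16), 178, 162, 213 and 203 (ZT20) and 116, 144, 157 and 153 (ZT24). Under NRF the 4 libraries gave 219.8, 164, 173 and 173 (ZT0), 204, 138, 169.5 and 126 (ZT4), 126, 129, 125 and 126 (ZT8), 145, 111, 170.1 and 145 (ZT12), 192, 189, 165 and 181 (ZT16), 227, 206, 216 and 199.7 (ZT20) and 177, 215, 204 and 244 (ZT24). Lows lay at ZT0 under DRF and at ZT8 under NRF, and the groups did not overlap at ZT0, ZT8, ZT16 or ZT24. Of these times ZT0 and ZT24 were called, lower under DRF, while ZT8 (adjusted p = 0.162) and ZT16 (adjusted p = 0.0601, limma) were not. ZT12, where the libraries overlapped, was called higher under DRF (adjusted p = 0.0332). The peaks, at 14.7 h ± 0.659 and 20.7 h ± 0.62, were 6.03 h ± 0.905 apart. The difference was called at the same clock time (adjusted p = 4.17e-06) and at the same feeding time (adjusted p = 6.03e-05, limma). Ern1 was also the 1 member (background 3.1%) with a difference between ZT24 and ZT0 under DRF, 0.51 higher at ZT24 (adjusted p = 0.0207), and the call did not hold without replicate 2, 3 or 4.

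Eif2ak3 (ENSMUSG00000031668, chromosome 6, 70844515 to 70905245), the kinase PERK, had no call for a 24-h or 12-h component. Under DRF, Eif2ak3 read 30.3, 29.2, 28.1 and 32.9 (ZT0), 51.9, 46.9, 35.2 and 38.3 (ZT4), 24.9, 25.9, 35.3 and 26.3 (ZT8), 34.2, 35.3, 61.6 and 72.3 (ZT12), 29.4, 31.6, 32.3 and 31.7 (ZT16), 26.9, 28.6, 35.3 and 37.6 (ZT20) and 31.03, 27.9, 28.5 and 35.6 (ZT24). Under NRF it gave 41.3, 53.2, 48.8 and 61.8 (ZT0), 29.5, 36.9, 33.03 and 29.4 (ZT4), 37.9, 31.6, 27.4 and 31.6 (ZT8), 32.4, 30.95, 44.98 and 52.4 (ZT12), 32.2, 37.97, 41.6 and 36.2 (ZT16), 31.9, 31.2, 32.1 and 36.6 (ZT20) and 29.7, 51.7, 52.7 and 34.04 (ZT24). At DRF ZT12 the libraries split, 2 at 34.2 and 35.3 and 2 at 61.6 and 72.3. The one time with a call was ZT0, lower under DRF by -0.74 ± 0.18 (log2, adjusted p = 0.00251, limma), where the groups did not overlap.

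**Figure D4:**
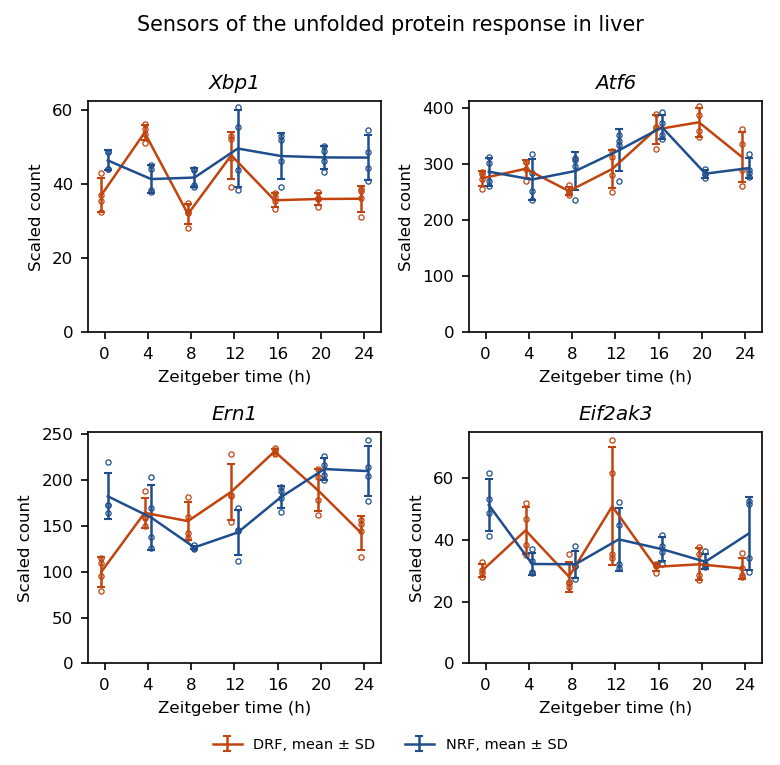
Scaled counts (y axis) of the 4 sensor genes against ZT (x axis, h) under DRF (red) and NRF (blue); circles are single libraries, lines and bars are the mean ± SD of 4. Xbp1 under DRF is high at ZT4 and ZT12, Atf6 is high at ZT16 in both regimens, and Ern1 has its maximum at ZT16 (DRF) and ZT20 (NRF).

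The HSP70, HSP90 and J-domain chaperones gave 7 of 7 calls for a 24-h difference between regimens (39.6% of all genes, 55.3% of those with a mean of at least 1), and the 6 rhythmic in both regimens were phase-inverted (51.0%). Hspa5, the HSP70 protein BiP that holds nascent chains and keeps the sensors inactive, rose from 82.8 ± 19.5 scaled counts (SD, n = 4) at ZT0 to 231 ± 24.3 at ZT4 under DRF, and the values there were 263, 230, 204 and 229. Under NRF its mean was highest at ZT16, 159 ± 87.1, from 109, 123, 289.6 and 116. Without replicate 3 that mean was 116 ± 7.05, below the 143 ± 29.2 of ZT0. By feeding time the curves of Hspa5 differed as well (adjusted p = 0.00051, limma), with a 24-h amplitude of 0.97 ± 0.11 under DRF and 0.45 ± 0.11 under NRF.

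Hyou1 (ENSMUSG00000032115, chromosome 9, 44379490 to 44392369), which exchanges nucleotide on Hspa5, had the smallest adjusted p of the set. Under DRF, Hyou1 read 23.5, 35.9, 22.02 and 34.3 (ZT0), 112, 100.1, 90.04 and 119 (ZT4), 85.5, 113, 71.3 and 73.03 (ZT8), 36.2, 50.5, 60.6 and 78.3 (ZT12), 50.6, 50.5, 48.5 and 53.7 (ZT16), 37.9, 30.3, 39.1 and 37.1 (ZT20) and 32.9, 17.5, 38.2 and 22.7 (ZT24). With night feeding the values were 74.9, 71.9, 84.05 and 82.1 (ZT0), 61.5, 33.6, 46.8 and 41.1 (ZT4), 29.9, 27.6, 44.7 and 27.8 (ZT8), 37.3, 22.9, 32.5 and 38.5 (ZT12), 72.3, 91.7, 103 and 90.7 (ZT16), 88.5, 98.6, 85.8 and 97.6 (ZT20) and 58.05, 65.4, 82.3 and 88.5 (ZT24). The DRF group was highest at ZT4 and low from ZT20 to ZT0, and the NRF group was highest at ZT16 and ZT20 and low at ZT8 and ZT12. The groups overlapped at ZT12 only. The peaks at 8.002 h ± 0.421 and 20.4 h ± 0.36 were 11.6 h ± 0.554 apart, with an adjusted p of 5.81e-15 at the same clock time and 0.556 at the same feeding time (limma). The 12-h amplitude was 0.54 ± 0.08 under DRF (adjusted p = 8.01e-05) and 0.19 ± 0.08 under NRF (adjusted p = 0.45).

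Dnajc3 (ENSMUSG00000022136, chromosome 14, 118937976 to 118981697), a J-domain partner of Hspa5 also known as an inhibitor of Eif2ak3, had a smaller swing. Under DRF, Dnajc3 read 304, 318, 272 and 315 (ZT0), 483, 477, 413 and 502 (ZT4), 466, 623, 472 and 438 (ZT8), 342, 409, 434 and 507 (ZT12), 425, 389, 403 and 395 (ZT16), 403, 351, 386 and 409.9 (ZT20) and 356, 292, 383 and 314 (ZT24). Under NRF its libraries gave 479, 389.7, 433 and 449.9 (ZT0), 379, 296, 361 and 298 (ZT4), 288, 309, 309.6 and 266 (ZT8), 361, 306, 338 and 375 (ZT12), 509, 551, 563 and 504 (ZT16), 509, 513, 483 and 512 (ZT20) and 489.8, 451, 452 and 471 (ZT24). The DRF values were highest at ZT4 and ZT8 and the NRF values at ZT16 and ZT20. Its 24-h amplitude was 0.23 ± 0.04 under DRF and 0.45 ± 0.04 under NRF, and the curves differed at the same clock time (adjusted p = 5.42e-13) and at the same feeding time (adjusted p = 0.00189, limma).

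Dnajb9 (ENSMUSG00000014905, chromosome 12, 44205559 to 44210326), the J-domain protein ERdj4, had the largest adjusted p of this group for the 24-h difference, 0.00318. Under DRF, Dnajb9 read 21.6, 25.3, 23.4 and 24.1 (ZT0), 54.2, 47.7, 37.1 and 43.8 (ZT4), 12.1, 9.36, 15.2 and 12.4 (ZT8), 22.1, 22.2, 34.6 and 53.2 (ZT12), 16.2, 15.5, 16.98 and 15.6 (ZT16), 15.96, 17.2, 19.98 and 27.6 (ZT20) and 21.1, 22.4, 22.4 and 28.6 (ZT24). Under NRF it had 17.6, 32.5, 29.7 and 41.1 (ZT0), 13.5, 12.6, 17.2 and 13.8 (ZT4), 18.5, 13.8, 13.3 and 14.8 (ZT8), 24.4, 22.8, 26.3 and 40.5 (ZT12), 35.99, 37.6, 42.5 and 29.6 (ZT16), 16.9, 17.5, 17.4 and 21.3 (ZT20) and 16.8, 32.9, 38.8 and 22.5 (ZT24). Under DRF it was high at ZT4 and low at ZT8. At DRF ZT12 the libraries split, with 34.6 and 53.2 above 22.1 and 22.2, which lay within the range of ZT0. Under NRF it was highest at ZT16 and low at ZT4, ZT8 and ZT20. The ZT4 difference was 1.61 ± 0.22 (log2, adjusted p = 3.63e-07, limma), and no DRF library overlapped an NRF library at that time. Its 12-h amplitudes, 0.48 ± 0.13 and 0.44 ± 0.12, had adjusted p-values of 0.0468 and 0.0883, and the first was lost in each fit without 1 replicate number.

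Hsp90b1, the ER HSP90 GRP94, went from 333 ± 25.97 at ZT0 to 593 ± 54.3 at ZT4 under DRF. Under NRF it had 564 ± 166 at ZT16, and 482 ± 29.1 without replicate 3. Dnajb11, another J-domain partner of Hspa5, had 109 ± 5.21 at DRF ZT4 and 90.1 ± 10.7 at NRF ZT0, and Hspa13, an HSP70-like protein, 36.4 ± 7.47 at DRF ZT12 and 36.02 ± 4.64 at NRF ZT16. All 3 were phase-inverted, by 11.4 h ± 0.884, 9.67 h ± 0.64 and 9.78 h ± 0.991. Genes annotated on the opposite strand cover 10.3% of the exon length of Hsp90b1, as they do 8.05% of Eif2ak3, 12.8% of Ssr2 and 11.7% of Sec62, and without knowing the strand setting their reads cannot be told apart.

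**Figure D5:**
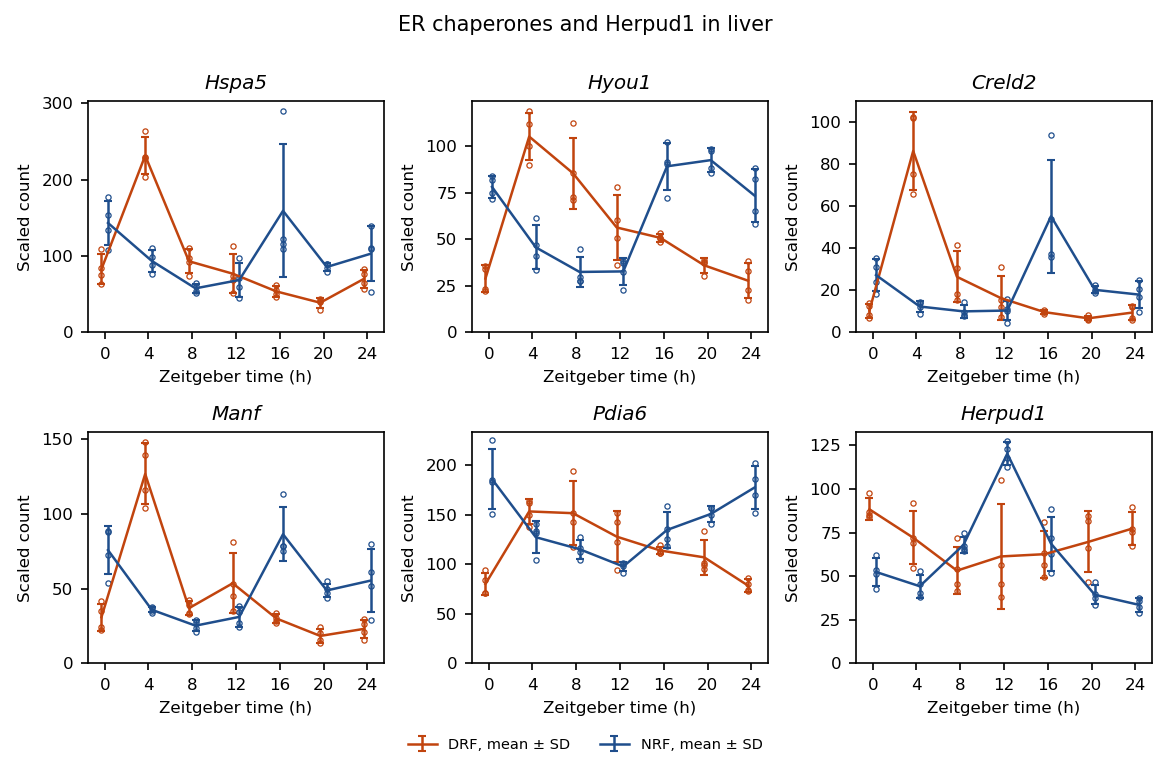
Scaled counts (y axis) of 5 folding factors and Herpud1 against ZT (x axis, h) under DRF (red) and NRF (blue); circles are single libraries, lines and bars are the mean ± SD of 4. Hspa5, Hyou1, Creld2 and Manf have their DRF maximum at ZT4, one NRF library at ZT16 reads far above the others for Hspa5 and Creld2, and Herpud1 has its NRF maximum at ZT12.

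Disulfide isomerases form and shuffle the disulfide bonds of secreted proteins. All 5 genes of this group had a called 24-h difference by clock time (55.3% of genes with a mean of at least 1) and 0 had one by feeding time (51.1%). Pdia3 (ENSMUSG00000027248, chromosome 2, 121413775 to 121438687), the isomerase ERp57 that works with calnexin and calreticulin, had the smallest adjusted p. Under DRF, Pdia3 read 278, 319, 275 and 342 (ZT0), 587, 543, 499.9 and 609.9 (ZT4), 568, 721, 456 and 526 (ZT8), 361, 481, 491 and 511 (ZT12), 435, 388, 427 and 392 (ZT16), 373, 314, 335 and 338 (ZT20) and 302, 248, 341 and 280.4 (ZT24). Under NRF the values were 621, 472, 571 and 543 (ZT0), 432, 371, 439 and 421 (ZT4), 353, 328, 393 and 336 (ZT8), 366, 341, 284 and 378 (ZT12), 425, 499.6, 772 and 494 (ZT16), 530.5, 658, 529.8 and 599 (ZT20) and 616, 504, 556 and 547 (ZT24). The DRF libraries were high at ZT4 and ZT8, and the NRF libraries from ZT16 to ZT0. The peaks were 11.6 h ± 0.642 apart, with equal 24-h amplitudes of 0.43 ± 0.05, and the adjusted p was 3.56e-13 by clock time and 0.886 by feeding time (limma).

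Pdia6 (ENSMUSG00000020571, chromosome 12, 17266545 to 17284770), an isomerase that also acts on Ern1, differed most between regimens at ZT0 and ZT24. Under DRF, Pdia6 read 71.2, 84.5, 70.9 and 94.3 (ZT0), 164, 149.9, 137 and 162 (ZT4), 152, 194, 117 and 143 (ZT8), 93.8, 123, 143 and 152 (ZT12), 112, 114, 111 and 119 (ZT16), 133, 94.97, 101.1 and 99.02 (ZT20) and 80.5, 73.3, 86.7 and 73.97 (ZT24). NRF gave 225, 151, 185 and 183 (ZT0), 133, 104, 141 and 131 (ZT4), 116, 105, 128 and 113 (ZT8), 101.1, 100.8, 90.9 and 98.6 (ZT12), 119, 125, 159 and 136 (ZT16), 149, 157, 141 and 157 (ZT20) and 202, 152, 169.8 and 186 (ZT24). At ZT0, ZT20 and ZT24 the DRF libraries all lay below the NRF libraries, by -1.20 ± 0.13 at ZT0 (adjusted p = 1.54e-09) and -1.16 ± 0.13 at ZT24 (log2, adjusted p = 4.64e-09, limma). At ZT4 the difference was 0.27 ± 0.13 (adjusted p = 0.142), which was not called. The 12-h amplitude was 0.27 ± 0.05 under DRF (adjusted p = 0.00363) and 0.03 ± 0.05 under NRF, and the DRF call was lost without replicate 1, without replicate 2 and on the deposited values.

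Ero1lb (ENSMUSG00000057069, chromosome 13, 12565874 to 12611396), the oxidase that recharges the isomerases, showed a wide spread between libraries. Under DRF, Ero1lb read 24.7, 20.3, 22.5 and 16.2 (ZT0), 41.7, 41.3, 18.3 and 45.98 (ZT4), 12.5, 33.7, 30.1 and 27.96 (ZT8), 24.4, 32.1, 18.01 and 39.7 (ZT12), 28.4, 13.9, 30.7 and 16.6 (ZT16), 31.4, 27.5, 15.5 and 27.5 (ZT20) and 32.00, 18.2, 36.04 and 28.1 (ZT24). Under NRF the libraries had 23.02, 16.9, 15.95 and 38.1 (ZT0), 28.7, 24.01, 29.1 and 14.4 (ZT4), 12.6, 22.8, 24.8 and 27.5 (ZT8), 30.7, 24.2, 41.6 and 39.6 (ZT12), 47.3, 43.1, 44.4 and 42.7 (ZT16), 40.5, 31.9, 35.5 and 37.4 (ZT20) and 16.4, 28.8, 36.4 and 41.8 (ZT24). The 24-h component was called under NRF (adjusted p = 0.00508) and not under DRF (adjusted p = 0.496), while the difference between them had an adjusted p of 0.00685 (limma), which did not pass without replicate 2 or 4. ZT16 was the one time with a call, lower under DRF by -1.03 ± 0.32 (log2, adjusted p = 0.0205), with no overlap between groups.

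Pdia4 and P4hb completed the group, with shifts of 10.4 h ± 0.821 and 8.84 h ± 1.11. P4hb, the main disulfide isomerase, was 1 of 3 members with a higher mean over the day under DRF (background 4.86%), by 0.21 (log2, adjusted p = 1.22e-05, limma). The other 2 were Edem1 (0.16, adjusted p = 0.00438) and Ssr3 (0.15, adjusted p = 0.0149), and Xbp1 was the 1 member with a lower mean (3.24%). Without replicate 1 of every group the mean was called in 2 members.

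Of the lectin chaperones and small folding factors, 5 of 5 members were rhythmic in both regimens (24.2% of all genes) and phase-inverted (51.0% of those). All 5 also had a 12-h component under DRF (4.74%), of which 1, Manf, was called without replicate 1, 2, Manf and Creld2, without replicate 2, 5 without replicate 3, and 3, Sdf2l1, Manf and Creld2, without replicate 4 and on the deposited values. Calr (ENSMUSG00000003814, chromosome 8, 84841850 to 84846934), the lectin calreticulin that binds newly glycosylated proteins, ran as follows. Under DRF, Calr read 102, 120.0, 95.7 and 126 (ZT0), 225, 214, 186 and 234 (ZT4), 219, 235, 181 and 211 (ZT8), 149, 198, 228 and 223 (ZT12), 185, 169, 154 and 191 (ZT16), 166, 144, 161 and 146 (ZT20) and 117, 91.7, 133 and 103 (ZT24). In the NRF groups the values were 245, 200.1, 260.3 and 244 (ZT0), 174, 151, 185 and 162 (ZT4), 144, 143, 168 and 139 (ZT8), 129, 122, 111 and 139 (ZT12), 137, 167, 254 and 181 (ZT16), 198, 268, 226 and 247 (ZT20) and 239, 214, 259.6 and 260.4 (ZT24). It was low at ZT0 and ZT24 under DRF, when it was highest under NRF, and the groups overlapped at ZT16 only. The peaks, 9.76 h ± 0.562 and 22.1 h ± 0.47, were 11.6 h ± 0.733 apart (adjusted p = 2.33e-12 by clock time and 0.622 by feeding time, limma).

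Sdf2l1 (ENSMUSG00000022769, chromosome 16, 17130138 to 17132383), a partner of J-domain proteins in the ER, had the lowest DRF to NRF ratio at ZT0. Under DRF, Sdf2l1 read 2.21, 3.04, 3.01 and 3.24 (ZT0), 20.2, 13.8, 12.2 and 18.4 (ZT4), 11.1, 15.3, 6.01 and 9.02 (ZT8), 4.21, 7.34, 9.72 and 15.1 (ZT12), 5.31, 6.02, 6.07 and 6.43 (ZT16), 7.32, 4.01, 4.73 and 4.74 (ZT20) and 2.72, 2.78, 2.63 and 2.35 (ZT24). Under NRF it had 14.7, 12.05, 15.8 and 17.4 (ZT0), 6.86, 4.96, 7.12 and 6.91 (ZT4), 3.89, 3.75, 8.12 and 4.55 (ZT8), 3.90, 3.47, 2.15 and 3.72 (ZT12), 9.75, 11.2, 14.1 and 10.8 (ZT16), 10.54, 11.7, 10.6 and 12.7 (ZT20) and 12.6, 10.7, 14.3 and 13.1 (ZT24). At ZT0 the 4 DRF libraries lay between 2.21 and 3.24 and the 4 NRF libraries between 12.0 and 17.4. The log2 difference was -2.04 ± 0.22 at ZT0 (adjusted p = 1.9e-09) and 1.19 ± 0.22 at ZT4 (adjusted p = 7.42e-05, limma). The highest group mean was 6.16 times the lowest under DRF and 4.53 times under NRF.

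Manf (ENSMUSG00000032575, chromosome 9, 106838312 to 106891979), a secreted survival factor that also binds Hspa5, had the smallest 12-h p of this group. Under DRF, Manf read 22.5, 41.6, 24.6 and 35.2 (ZT0), 148, 116, 104 and 139 (ZT4), 42.3, 39.2, 33.4 and 32.9 (ZT8), 34.8, 44.9, 53.2 and 81.5 (ZT12), 28.7, 27.2, 30.6 and 33.8 (ZT16), 15.8, 13.4, 20.2 and 24.3 (ZT20) and 26.7, 15.6, 29.5 and 20.8 (ZT24). Under NRF it read 54.1, 72.5, 88.8 and 87.7 (ZT0), 37.1, 34.9, 33.9 and 37.7 (ZT4), 27.5, 20.8, 29.2 and 23.7 (ZT8), 34.7, 24.6, 26.9 and 38.4 (ZT12), 74.97, 78.5, 113 and 78.9 (ZT16), 47.04, 49.5, 43.9 and 54.9 (ZT20) and 28.7, 52.1, 79.6 and 61.1 (ZT24). Under DRF the high time was ZT4, and the libraries of ZT12, from 34.8 to 81.5, overlapped those of ZT8. ZT16 and ZT0 were the high times under NRF. The 12-h amplitude was 0.72 ± 0.13 under DRF (adjusted p = 0.000892) and 0.38 ± 0.13 under NRF (adjusted p = 0.24). At ZT4 DRF exceeded NRF by 1.78 ± 0.23 (log2, adjusted p = 8.81e-08, limma) without overlap. An exon share of 8.85% of Manf lies opposite annotated genes, and the use of strand in counting was not given in the sources used here.

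Creld2, a disulfide isomerase-like factor, had the largest swing of the set, 86.4 ± 18.6 at ZT4 against 6.72 ± 0.998 at ZT20 under DRF. Its NRF maximum of 55.3 ± 27.03 at ZT16 came from 36.0, 54.0, 93.9 and 37.3, and was 42.4 ± 10.04 without replicate 3. The log2 difference was 2.71 ± 0.33 at ZT4 (adjusted p = 3.51e-08) and -2.29 ± 0.33 at ZT16 (adjusted p = 2.04e-06, limma; 5.33e-05 without that library). Canx, the membrane lectin calnexin, moved least of the group, with 24-h amplitudes of 0.14 ± 0.03 and 0.25 ± 0.03. For Canx and P4hb the counts were so deep that whole numbers could not be told from others.

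ER-associated degradation draws misfolded proteins out of the ER for the proteasome. Of its 8 members, 4 had a 24-h difference by clock time and 4 by feeding time, shares near those of all genes (39.6% and 36.7%) and of genes with a mean of at least 1 (55.3% and 51.1%). The 3 members rhythmic in both regimens, Edem1, Herpud1 and Syvn1, were phase-inverted (51.0% of all genes rhythmic in both). Edem1 (ENSMUSG00000030104, chromosome 6, 108828641 to 108859356), which trims mannose from proteins to be degraded, had the smallest adjusted p. Under DRF, Edem1 read 184, 213, 192 and 192 (ZT0), 284, 262, 245 and 288 (ZT4), 259.8, 272, 267 and 247 (ZT8), 288, 303, 308 and 308 (ZT12), 280.5, 267, 294 and 289.9 (ZT16), 226, 215, 239.8 and 225 (ZT20) and 203, 198, 231 and 224 (ZT24). Under NRF the libraries read 231, 272, 289 and 262 (ZT0), 234, 219.9, 184 and 208 (ZT4), 168, 163, 196 and 164 (ZT8), 165, 162, 238 and 252 (ZT12), 250.2, 282, 200.2 and 308 (ZT16), 281, 265, 278 and 280.0 (ZT20) and 261, 269, 288 and 256 (ZT24). It was high from ZT4 to ZT16 under DRF and from ZT16 to ZT0 under NRF, and the groups overlapped at ZT16 only. The peaks were at 11.4 h ± 0.647 and 20.4 h ± 0.437 (adjusted p = 7.29e-11 by clock time and 0.00372 by feeding time, limma).

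Herpud1 (ENSMUSG00000031770, chromosome 8, 94386438 to 94395377) had its peaks at the opposite times of day from most chaperones. Under DRF, Herpud1 read 83.7, 97.6, 86.8 and 84.98 (ZT0), 92.01, 71.99, 54.97 and 69.2 (ZT4), 41.5, 54.2, 71.6 and 45.5 (ZT8), 38.3, 45.7, 56.2 and 105 (ZT12), 81.1, 49.6, 63.4 and 56.4 (ZT16), 46.5, 84.4, 65.99 and 81.7 (ZT20) and 75.3, 67.1, 89.6 and 77.00 (ZT24). With night feeding the values were 51.5, 53.5, 42.4 and 62.3 (ZT0), 38.2, 40.4, 52.8 and 45.7 (ZT4), 67.2, 64.7, 65.3 and 74.6 (ZT8), 113, 118, 127 and 123 (ZT12), 62.6, 71.8, 88.4 and 51.7 (ZT16), 39.9, 33.5, 37.7 and 46.4 (ZT20) and 32.3, 35.7, 37.7 and 28.8 (ZT24). Under NRF it rose to a sharp maximum at ZT12, just as the dark began, when its lowest library read 113, while under DRF the highest group was ZT0. The log2 difference was -1.07 ± 0.20 at ZT12 (adjusted p = 9.81e-05) and 1.17 ± 0.20 at ZT24 (adjusted p = 2.3e-05, limma). The 24-h amplitude was 0.28 ± 0.08 under DRF and 0.74 ± 0.08 under NRF. With Edem2 it was 1 of the 2 members (background 7.88%) with a difference between ZT24 and ZT0 under NRF, -0.62 (adjusted p = 0.0454), and 0 members were called without replicate 2 or 4.

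Syvn1 (ENSMUSG00000024807, chromosome 19, 6046576 to 6053712), the ubiquitin ligase HRD1 at the core of the pathway, had its highest group means at the same times as Hspa5. These were ZT4 under DRF and ZT16 under NRF, and without NRF ZT16 replicate 3 neither gene had its NRF maximum at ZT16. Under DRF, Syvn1 read 10.2, 10.8, 8.82 and 12.4 (ZT0), 40.4, 26.3, 19.6 and 38.8 (ZT4), 12.2, 13.5, 11.6 and 12.3 (ZT8), 8.16, 11.01, 15.1 and 20.8 (ZT12), 12.9, 7.18, 10.9 and 11.2 (ZT16), 9.12, 10.1, 10.47 and 9.77 (ZT20) and 13.9, 8.11, 13.9 and 9.81 (ZT24). Under NRF it had 12.9, 22.04, 14.7 and 21.4 (ZT0), 13.9, 11.5, 12.6 and 12.8 (ZT4), 11.8, 6.43, 8.47 and 11.01 (ZT8), 11.2, 11.1, 10.1 and 11.2 (ZT12), 13.03, 19.7, 34.3 and 19.00 (ZT16), 12.5, 12.97, 9.59 and 14.5 (ZT20) and 12.1, 10.01, 21.7 and 16.2 (ZT24). The DRF maximum stood at ZT4, above every NRF library of that time, by 1.18 ± 0.24 (log2, adjusted p = 0.000209, limma). The NRF ZT16 mean of 21.5 ± 9.04 was 17.3 ± 3.68 without replicate 3. Its 12-h component under DRF, 0.42 ± 0.11, had an adjusted p of 0.0375, a call lost without replicate 1, 2 or 4 and on the deposited values.

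Derl1 (ENSMUSG00000022365, chromosome 15, 57869502 to 57892448), a channel protein of the same pathway, had the largest adjusted p for the 24-h difference in this group, 0.849. Under DRF, Derl1 read 149.5, 149, 148 and 149.8 (ZT0), 171, 175, 161 and 181 (ZT4), 154, 155, 159 and 148 (ZT8), 147, 161, 168 and 158 (ZT12), 147, 146, 149 and 150.0 (ZT16), 149.8, 157, 166 and 157 (ZT20) and 138, 131, 157 and 146 (ZT24). NRF gave 139, 163, 158 and 161 (ZT0), 129.7, 149, 149.6 and 146 (ZT4), 153, 152, 156 and 154 (ZT8), 138, 149, 189.7 and 165 (ZT12), 137, 153, 111 and 166 (ZT16), 135, 156, 137 and 157 (ZT20) and 152, 141, 156 and 139 (ZT24). All group means lay between 142 and 172. ZT4 was the one time with a call, higher under DRF by 0.26 ± 0.08 (log2, adjusted p = 0.0135, limma). Derl2 and Derl3 had no call in any of these tests, and Derl3 was near 0, with a mean of 0.147 scaled counts. Sel1l, the partner of Syvn1, had a 24-h component under NRF (adjusted p = 1.37e-05) and not under DRF (adjusted p = 0.969), with an adjusted p of 0.0034 for the difference. At ZT4 Sel1l was higher under DRF by 0.81 ± 0.13 (log2, adjusted p = 8.06e-06). Edem2 peaked at 5.96 h ± 0.813 under DRF, and had no 24-h call under NRF (adjusted p = 0.176). Its 24-h difference was not called by clock time (adjusted p = 0.152) and was called by feeding time (adjusted p = 0.00314, limma).

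Translocation brings new chains into the ER through the Sec61 channel. Of the 11 members, 8 had a 24-h difference by clock time and 4 by feeding time (55.3% and 51.1% of genes with a mean of at least 1), and 5 of the 7 rhythmic in both regimens were phase-inverted (51.0%). Ssr1 (ENSMUSG00000021427, chromosome 13, 37966605 to 37994217), a subunit of the translocon-associated complex, had the smallest adjusted p. Under DRF, Ssr1 read 38.9, 43.8, 41.4 and 45.3 (ZT0), 73.9, 70.5, 67.04 and 75.6 (ZT4), 68.5, 77.6, 65.1 and 64.00 (ZT8), 68.2, 72.1, 74.5 and 82.7 (ZT12), 61.1, 58.3, 68.00 and 64.6 (ZT16), 56.5, 45.2, 56.03 and 52.5 (ZT20) and 40.2, 41.1, 49.6 and 46.04 (ZT24). In the NRF groups the values were 59.9, 67.5, 72.6 and 67.04 (ZT0), 56.7, 54.5, 48.1 and 53.7 (ZT4), 43.8, 43.3, 49.1 and 39.4 (ZT8), 40.7, 42.9, 57.4 and 54.2 (ZT12), 58.5, 67.1, 58.3 and 71.4 (ZT16), 69.8, 78.8, 66.1 and 73.8 (ZT20) and 65.8, 67.1, 83.4 and 81.7 (ZT24). The DRF libraries were high from ZT4 to ZT12 and the NRF libraries from ZT16 to ZT0, with overlap at ZT16 only. The peaks were 10.7 h ± 0.626 apart (adjusted p = 6.7e-14 by clock time and 0.239 by feeding time, limma).

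Ssr3 (ENSMUSG00000027828, chromosome 3, 65379655 to 65392623), another subunit of that complex, went the same way with a shift of 8.36 h ± 0.758. Under DRF, Ssr3 read 122, 123, 109 and 126 (ZT0), 179, 173, 158 and 177 (ZT4), 176, 198, 166 and 155 (ZT8), 184, 198, 196 and 219 (ZT12), 174, 159, 167 and 176 (ZT16), 166, 144, 173 and 155 (ZT20) and 125, 117, 146 and 139.7 (ZT24). Under NRF it had 162, 156, 153 and 169 (ZT0), 136, 127, 128 and 134 (ZT4), 118, 109, 122 and 100.4 (ZT8), 112, 114, 156 and 164 (ZT12), 158, 188, 176 and 182 (ZT16), 176, 189.6, 160.3 and 184 (ZT20) and 184, 159.9, 189.9 and 185 (ZT24). ZT12 held the DRF maximum, above every NRF library at that time. The difference was called by clock time (adjusted p = 1.82e-10) and by feeding time (adjusted p = 0.000469, limma).

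Sec61a1 (ENSMUSG00000030082, chromosome 6, 88503579 to 88518905), the pore of the channel, had the smallest 12-h p of the group. Under DRF, Sec61a1 read 54.6, 61.97, 50.5 and 60.8 (ZT0), 92.3, 90.4, 78.9 and 90.4 (ZT4), 80.96, 91.4, 85.8 and 77.4 (ZT8), 74.6, 85.7, 86.4 and 94.01 (ZT12), 78.3, 72.1, 74.6 and 78.8 (ZT16), 71.2, 64.6, 74.9 and 65.1 (ZT20) and 55.7, 44.9, 63.4 and 53.97 (ZT24). Under NRF it read 76.6, 85.9, 83.04 and 90.4 (ZT0), 61.7, 62.02, 68.5 and 69.9 (ZT4), 59.9, 57.3, 66.9 and 58.3 (ZT8), 62.1, 60.6, 84.8 and 75.8 (ZT12), 65.4, 87.3, 74.1 and 88.2 (ZT16), 80.8, 93.4, 78.3 and 84.4 (ZT20) and 73.7, 74.6, 88.1 and 86.7 (ZT24). Its low was at ZT0 and ZT24 under DRF and at ZT4 and ZT8 under NRF. The 12-h component under DRF was 0.16 ± 0.04 (adjusted p = 0.0255, limma), a call lost in each fit without 1 replicate number, and the peaks of the 24-h component were 9.97 h ± 0.87 apart. An exon share of 8.16% of Sec61a1 lies opposite another annotated gene.

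Srp54a (ENSMUSG00000073079, chromosome 12, 55080262 to 55115367), the GTPase of the signal recognition particle, had the largest adjusted p for the 24-h difference here, 0.405. Under DRF, Srp54a read 12.6, 35.5, 10.8 and 34.2 (ZT0), 37.6, 40.3, 36.9 and 39.7 (ZT4), 33.6, 35.3, 33.6 and 19.5 (ZT8), 24.4, 22.9, 24.9 and 14.5 (ZT12), 26.5, 19.9, 18.4 and 25.1 (ZT16), 24.9, 24.5, 23.3 and 26.7 (ZT20) and 20.4, 25.3, 27.8 and 30.3 (ZT24). Under NRF it had 18.1, 22.6, 20.1 and 30.5 (ZT0), 30.8, 35.1, 20.01 and 25.1 (ZT4), 29.5, 19.5, 27.6 and 19.2 (ZT8), 14.2, 29.8, 24.7 and 14.9 (ZT12), 21.5, 26.9, 35.2 and 22.99 (ZT16), 23.6, 24.7, 24.6 and 16.4 (ZT20) and 20.6, 24.6, 33.8 and 36.7 (ZT24). Single libraries of one group spread widely, as at DRF ZT0, and no test called this gene. It has near-identical copies in the mouse genome, so reads may have been split between them and its values are uncertain.

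The small channel subunits Sec61b and Sec61g peaked at 8.56 h ± 0.572 and 7.20 h ± 0.606 under DRF and at 1.69 h ± 0.874 and 2.12 h ± 0.794 under NRF, shifts of 6.87 h ± 1.04 and 5.08 h ± 0.999. Both differed by feeding time too (adjusted p = 0.000641 and 3.5e-05, limma). Sec62 and Sec63 help chains into the channel after translation. Sec62 fell at ZT12 under DRF against NRF by 0.30 ± 0.07 on the log2 scale (adjusted p = 0.00124), and Sec63 was called under NRF (adjusted p = 0.00621), with an adjusted p of 0.0967 for the difference. Spcs2, of the signal peptidase, was inverted by 11.6 h ± 0.828 at a mean of 4.42 scaled counts. Ssr2 peaked at 6.68 h ± 0.798 under DRF and differed by clock time (adjusted p = 0.00144), and Ssr4 differed at ZT4 (0.24 ± 0.07, adjusted p = 0.0172) and ZT24 (-0.26 ± 0.07, adjusted p = 0.0119).

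The rest of the pathway was counted from 5 further lists of 83 genes, all of them tested. A 24-h difference by clock time was called in 48 and by feeding time in 39, and 24 of the 36 with a rhythm in both regimens were phase-inverted. The shares over all genes were 39.6%, 36.7% and 51.0%, and among genes with a mean of at least 1 the first 2 were 55.3% and 51.1%, so the counts by clock time and by feeding time lie near those of expressed genes. Among 16 regulators of the response, 11 differed by clock time, led by Trib3, a pseudokinase induced by Atf4 and Ddit3, whose mean was highest at ZT16 under DRF (5.95 ± 1.77) and at ZT8 under NRF (13.8 ± 2.88). Creb3l3, the liver relative of Atf6, peaked at 23.4 h ± 0.398 and 10.3 h ± 0.681, and Ppp1r15b, which reverses the mark set by Eif2ak3, at 17.1 h ± 0.331 under NRF. Of 20 other folding genes 11 differed, the first being Txndc5, Erp44 and Pdia5, and Txndc5 had 548 ± 38.1 at DRF ZT4 and 475 ± 63.6 at NRF ZT16. Of 18 degradation genes 8 differed, led by Herpud2, Ubxn4 and Vcp. Herpud2 had its DRF peak at 19.2 h ± 0.553 and its NRF peak at 8.39 h ± 0.673, in the dark and in the light. Of 20 translocation and glycosylation genes 11 differed, led by Rpn1, Stt3b and Tram1, and Rpn1, of the oligosaccharyltransferase, peaked 11.5 h ± 0.663 apart. Of 9 COPII genes, which carry cargo out of the ER, 7 differed, led by Sec31a, Sec23b and Sar1b. Sec23b had 62.5 ± 4.92 at DRF ZT4 and 50.3 ± 4.69 at NRF ZT16.

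Markers were read to see whether the tissue fits its label. Alb, Apoa1 and Cyp2e1 of hepatocytes summed to between 76944 and 136414 scaled counts per library, and Ttr was not analysed here. Their means were 89268, 2334 and 4687, so this sum mostly follows Alb. As scaled counts do not compare genes, the sums do not measure the shares of cell types. The 4 Kupffer cell markers summed to between 338 and 957, the 4 of sinusoidal endothelium to between 274 and 399, and the 4 of stellate cells to between 578 and 852. Cholangiocyte markers summed to between 19.99 and 39.8, and those of B and plasma cells, which are rich in these chaperones, to between 1.34 and 6.49, with Mzb1 at 0 in at least 1 library. Of 6 pancreatic acinar markers only Cela1 was analysed, at 1.58 to 4.72. At DRF ZT4 the plasma cell sum was 2.06 to 3.21 and at NRF ZT16 it was 1.87 to 2.51, while the endothelial sum had its lowest group mean at DRF ZT4, 285, as had the hepatocyte sum, 89296, and the stellate sum, 616. A 24-h difference by clock time was called in 6 of the 21 markers of cells other than hepatocytes, Adgre1 (adjusted p = 0.0368) and Cd5l (0.0348) of Kupffer cells, Stab2 (1.12e-11) and Lyve1 (0.00107) of endothelium, and Krt19 (1.99e-07) and Sox9 (3.05e-12) of cholangiocytes, and in 1 of 3 of hepatocytes, Cyp2e1 (2.42e-09, limma). The part of cell numbers in the results was not tested, and in bulk liver fewer cells of a type and less RNA per cell cannot be told apart.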

How the data were processed

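RNA of mouse liver had been sequenced in 56 libraries as ribosome-depleted, strand-specific paired reads per the protocol in the labels, whose molecule field says polyA RNA. The submitters' processing notes name CASAVA 1.8, featureCounts 1.5.0-p3, mm10 and GRCm38.p6. No aligner, and no strand setting for counting, is given in the sources used here. The gene values deposited by the authors are named TPM but are a score: value times exon length (GENCODE vM21, GRCm38) followed a·ln(1 + f·k), with library constants a and f and whole counts k. In 5000 genes kept out of the fit, whole numbers (tolerance 0.05) came out for 99.6% of values in the bin up to 10 counts, 96.9% in that up to 100, 95.8% in that up to 1000 and 96.7% in that up to 20000. Of 25415 genes 171 were not recovered. For 264 genes, Canx and P4hb among them, the counts were too deep to judge, and for Syvn1 a length searched on the values was used. The recovered total per library, 304 to 683 M (M, mega), exceeds by far the sequencing depth that the study states. The counts are therefore not called reads, and no count test was run. Scaled counts f·k summed to between 835316 and 1039455, and 1 unit stood for 304 to 723 recovered counts. Of 24268 Ensembl identifiers 24223 matched the annotation. The deposited columns were all assigned, leaving 0 unused.

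The design had assumed linear TPM, so its tests were applied to log2(scaled count + 1), a scale that understates the change of low genes. limma 3.58.1 with trend was fitted to 25244 genes (mean deposited value of at least 0.1, which removed 0) over all 56 libraries, with 24-h and 12-h cosine and sine terms per regimen and, for single times, with 14 group means. Peak times and shifts have SE by the delta method. Scripts were tested on simulated data. The members and lists were chosen with earlier results of these data known. Library values are given for the sensors and, per role group, for the 2 members with the smallest adjusted p of the 24-h difference, the 1 with the smallest 12-h p and the 1 with the largest adjusted p of the 24-h difference; in each further list 3 genes were named by the first of these. Hspa5, Creld2 and the other members named beside them were added after their values were seen. Alternatives were the deposited values, a pseudocount of 0.1, a mean of at least 1, median-of-ratios scaling, removal of a length trend, leaving out ZT0, ZT24 or a replicate number, a replicate block, a 24-h term alone and a Kendall rank test joined with a cosinor F test. The transcript and circRNA tables were not used, and no annotated Xbp1 transcript lacks the intron that Ern1 removes, so its splicing was not analysed here.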

Additional observations from a re-analysis of the deposited data

Results flagged for a closer look

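The named members were searched for single libraries far from the other 3 of their group, by the gap to the nearest library as a share of the group's range (Dixon's test). Of 294 groups of 4 libraries 16 were past its critical value, and chance flags about 1 in 20. The values are scaled counts.

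Among sensors, Ern1 read 219.8 in NRF ZT0 replicate 1 against 164 to 173 in the others. Eif2ak3 read 35.3 in DRF ZT8 replicate 3 against 24.9 to 26.3, and 36.6 in NRF ZT20 replicate 4 against 31.2 to 32.1. Of the chaperones, Hyou1 read 44.7 in NRF ZT8 replicate 3 against 27.6 to 29.9. Dnajc3 read 483 in NRF ZT20 replicate 3 against 509 to 513, and Dnajb9 21.3 in NRF ZT20 replicate 4 against 16.9 to 17.5. Pdia6 read 133 in DRF ZT20 replicate 1 against 94.97 to 101.1. Ero1lb read 18.3 in DRF ZT4 replicate 3 against 41.3 to 46.0, and Sdf2l1 4.96 in NRF ZT4 replicate 2 against 6.86 to 7.12.

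Manf read 113 in NRF ZT16 replicate 3, the library that stood apart over all genes, against 75.0 to 78.9. In ER-associated degradation, Edem1 read 196 in NRF ZT8 replicate 3 against 163 to 168, Syvn1 10.1 in NRF ZT12 replicate 3 against 11.1 to 11.2, and Derl1 129.7 in NRF ZT4 replicate 1 against 146 to 149.6. In translocation, Sec61a1 read 78.9 in DRF ZT4 replicate 3 against 90.4 to 92.3. Srp54a read 19.5 in DRF ZT8 replicate 4 against 33.6 to 35.3, and 16.4 in NRF ZT20 replicate 4 against 23.6 to 24.7.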

How the results depend on the processing

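Of 145 recomputed counts of called members, 125 stayed within 1.5 times the reported value and 20 did not. Single-gene results were recomputed for the 24-h difference and for the 12-h component under DRF. Of these 546 results 485 stayed the same, 58 were weaker and 3 stronger. Both come from F tests, which carry no sign, so they cannot show a change of direction. When a replicate number was left out, the 24-h counts were the steadier ones. They were 27 to 29 members under DRF and 29 to 30 under NRF. The clock-time difference gave 30 to 31 and the feeding-time difference 12 to 15. Over all 25244 genes these counts went from 8929, 11424, 9989 and 9256 to 6676 to 7170, 9298 to 9738, 8203 to 8485 and 6802 to 7508. With the length trend removed the all-gene counts were 11722, 15698, 9179 and 14877. The rank test gave 33 members under DRF and 31 under NRF, with no share over all genes counted.

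The 12-h count under DRF fell from 20 to 5 on the deposited values and lay between 2 and 15 without one replicate number. The 12-h count under NRF was 1 with a mean of at least 1, 1 without ZT24 and 1 without ZT0, where all genes gave 628 of 13709, 578 and 679. The mean over the day was called in 1 member on the deposited values and in 2 to 4 without one replicate number. Over all genes that count went from 2045 to 1308 and to 913 to 1681. ZT24 against ZT0 gave 6 members under DRF and 19 under NRF on the deposited values, 3 under DRF with the length trend removed, 1 under NRF with median-of-ratios scaling, and 0 to 2 in either regimen without one replicate number. Over all genes the length trend moved the ZT24 against ZT0 comparison from 783 to 6390 calls under DRF and from 1990 to 8427 under NRF. On the deposited values all genes rose as well, to 1859 calls under DRF and 5999 under NRF. Median-of-ratios scaling gave 2089 under NRF. Without one replicate number the all-gene calls were 119 to 601 under DRF and 160 to 2642 under NRF. The causes were not tested.

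Libraries with the same replicate number did not deviate together (median correlation 0.00499 over 364 pairs, 36 over 0.1), and 17 of 56 libraries correlated best with their own number, so the numbers were not taken as pairs. With a replicate block the counts were 29 and 31 for the 24-h component, 19 and 0 for the 12-h component, 32 by clock time, 14 by feeding time, 0 for the 12-h difference, 4 for the mean, 35 for any time, and 1 and 2 for ZT24 against ZT0. Without NRF ZT16 replicate 3, an alternative chosen after seeing the data, they were 29, 30, 21, 0, 32, 17, 0, 4, 34, 1 and 2 in that order.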
